A study of Mus musculus with 21 samples.

Results

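Propylene glycol (PG) at the lower of the study's doses, labelled 826, was compared with saline in mouse lung, to describe which genes differed after repeated delivery of PG into the airway. The comparison takes the 3 libraries labelled PG 826 (animals 22, 23 and 25) and the 3 labelled saline as the PG control (animals 6, 8 and 10), which are 6 of the 21 libraries of the study. All were C57BL/6 mice dosed once a day over 14 days with 50 µL instilled through the trachea. Lungs were collected on day 15, and RNA was taken from the tissue left after the airspaces had been washed out by bronchoalveolar lavage. PG 826 animals received PG and saline animals received saline on the same schedule. A PG 1100 group of 3 animals and a group of 3 animals given 10% ethanol, labelled as the control for vitamin E acetate, are set beside them where stated, and 3 groups given vitamin E acetate entered only the estimate of the spread between animals. The sample labels give the PG dose in mg/kg and the series description gives the same number in mg/mL, so the number alone is used here. Age, sex and the time of day at which lungs were taken are not given in the sources used here.

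Propylene glycol is a small water-soluble alcohol used as a solvent in e-cigarette liquids, inhaled drugs and foods, and it is oxidised through alcohol and aldehyde dehydrogenases. The lung holds several systems that respond to inhaled or circulating signals. Its cells carry a circadian clock, in which the factors CLOCK and BMAL1 (the product of Arntl) bind E-box sequences and switch on Per, Cry, Nr1d1 and Dbp, whose products then repress or relay the signal. The glucocorticoid receptor, the receptor for adrenal steroids, is a transcription factor that switches on Fkbp5, Per1, Klf9 and Tsc22d3. Airways are lined by secretory club cells, ciliated cells and mucous cells, while macrophages clear the airspaces and fibroblasts lay down collagen.

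Reads came from the 3′ ends of transcripts and were deposited as counts per gene symbol. Levels are given in CPM, counts scaled to a common library total with TMM factors, always in the order of animals 22, 23 and 25 for PG 826 and 6, 8 and 10 for saline, and mean ± SD values have n = 3. Differences are log2 fold changes of PG 826 over saline ± SE. Total counts were 9195325 to 11273751 in the 6 libraries, so a level of 5 CPM stood for 41.1 to 57.5 counts. The ribosomal transcript Rn45s took 19.46% to 19.63% of counts after PG 826 and 21.61% to 21.96% after saline (exact permutation test, two-sided p = 0.1, the smallest that 3 against 3 allows). Haemoglobin transcripts took 5.233% to 9.058% after PG 826 and 6.494% to 13.75% after saline (exact permutation test, two-sided p = 0.4). Between 15598 and 15918 genes had a count after PG 826, against 15015 to 15540 after saline. Saline animals differed more among themselves than PG 826 animals, with a chi-square per degree of freedom of 11.21 to 19.01 between PG 826 animals and 17.73 to 40.48 between saline animals. All 6 libraries carried the defining transcripts of lung epithelium. Sftpc, the surfactant protein of alveolar type II cells, measured 16828, 16069.8 and 15584 CPM after PG 826, against 15804, 24473 and 20803 CPM after saline. Ager, a type I cell marker, measured 2627, 2852 and 2902 CPM after PG 826, against 2858, 3007 and 2517 CPM after saline. In whole lung, fewer cells of a type and less RNA per cell cannot be told apart.

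A short list of genes differed after PG 826. Of 14727 genes tested, 20 passed the threshold of an adjusted p below 0.05 (0.136% of genes tested), of which 14 rose (0.0951%) and 6 fell (0.0407%). The risers were Retnla, Fkbp5, Dbp, Per1, Sema7a, Nr1d1, Tmem106a, Lox, Zfp598, Chil3, Col1a1, Klf9, Atp11a and Alas1. Those that fell were Tff2, Asgr1, Vpreb3, Mak, Gstm2 and Pttg1. In each of the 20 genes the 3 PG 826 animals lay wholly above or wholly below the 3 saline animals. Over all genes tested, 13.9% did not overlap between the groups, 7.27% with PG 826 higher and 6.67% with PG 826 lower. The log2 fold change was above 0 in 50.2% of all genes tested, and its median was 0.002. At an unadjusted p below 0.05 the count was 1395 genes. The last gene inside the threshold was Zfp598 (adjusted p = 0.0499) and the first outside was Gfra1 (adjusted p = 0.057), both by edgeR. The data were also fitted in 14 other ways, which include leaving out each of the 6 animals in turn, and Fkbp5, Dbp and Asgr1 were called each time.

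**Figure D1:**
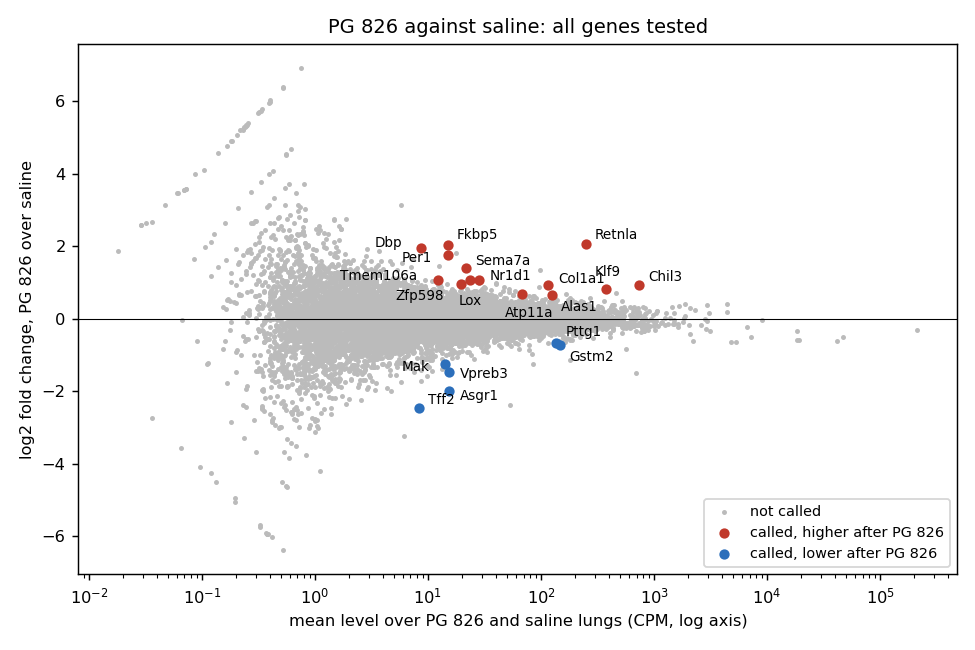
Log2 fold change of PG 826 over saline (vertical axis) against the mean level of each tested gene in CPM over the groups (horizontal log axis), 1 point per gene. The 20 called genes are labelled, 14 above 0 and 6 below it; most of the 14727 points, including many with a larger fold change at low level, were not called.

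**Figure D2:**
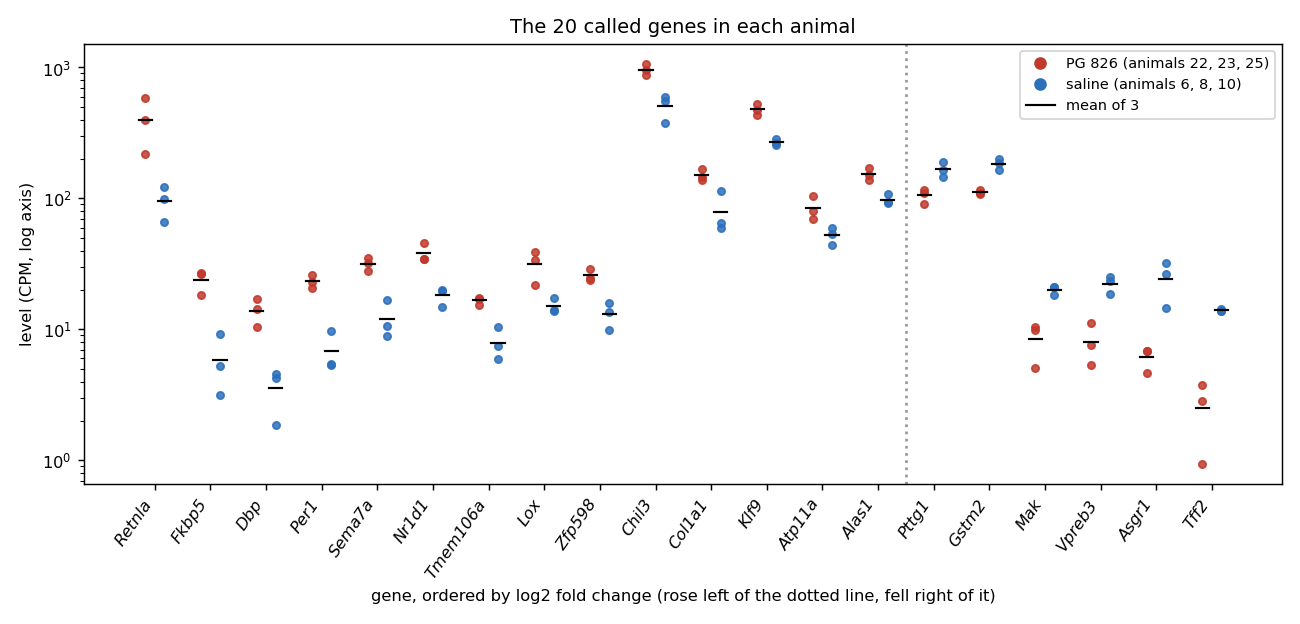
Level of each called gene in each animal in CPM (log axis), with PG 826 animals left of saline animals and a bar at the mean of 3. Genes are ordered by log2 fold change, and in every gene the points of the groups do not overlap.

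Clock output genes and targets of the glucocorticoid receptor made up 5 of the 14 risers: Dbp, Per1, Nr1d1, Fkbp5 and Klf9. Fkbp5 encodes a co-chaperone that is induced by the glucocorticoid receptor and dampens it (chromosome 17, 28399094 to 28517527, minus strand). It measured 26.4, 18.4 and 27.2 CPM after PG 826, against 3.16, 9.25 and 5.25 CPM after saline, a rise of 2.04 ± 0.27 (edgeR adjusted p = 9.56e-05). The lowest PG 826 animal stood well above the highest saline animal, and no other gene in the comparison had a smaller p. Klf9, a zinc finger factor that both the glucocorticoid receptor and the clock are known to induce, measured 433, 474 and 527 CPM after PG 826, against 285, 256 and 265 CPM after saline. Klf9 rose by 0.83 ± 0.14 (edgeR adjusted p = 0.0031), with little spread within either group.

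Dbp, a transcription factor that relays clock time to output genes, rose by 1.97 ± 0.34 (edgeR adjusted p = 0.0031). Its levels were 14.4, 17 and 10.4 CPM after PG 826, against 1.87, 4.26 and 4.57 CPM after saline. Dbp and Sphk2, its neighbour on the opposite strand, overlap, and whether strand was used in counting is not given in the sources used here. Sphk2 had a log2 fold change of 0.72 (edgeR adjusted p = 0.132). It was called higher by DESeq2 (0.71, DESeq2 adjusted p = 0.0375) and without saline animal 6 (0.83, edgeR adjusted p = 0.0428). The part of reads shared with Sphk2 in the Dbp result was not tested. Per1, a repressor of CLOCK and BMAL1 that belongs both to the clock and to the glucocorticoid targets, rose by 1.77 ± 0.31 (edgeR adjusted p = 0.0031; chromosome 11, 69095217 to 69109960, plus strand). It measured 26.2, 20.8 and 23.2 CPM after PG 826, against 5.33, 5.48 and 9.73 CPM after saline, with the saline animals all far below. Nr1d1, which encodes the repressor REV-ERB alpha, measured 34.2, 46 and 34.5 CPM after PG 826, against 20, 14.9 and 19.7 CPM after saline. That was a rise of 1.07 ± 0.23 (edgeR adjusted p = 0.0389), while Thra, which overlaps Nr1d1 on the opposite strand, had a log2 fold change of 0.02 (edgeR adjusted p = 0.993).

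The clock list, which includes Dbp, Per1 and Nr1d1, held 19 tested genes, of which these 3 rose, none fell and 16 did not pass. Of the 17 members sorted by role, 12 were output and repressor genes, the called Dbp, Per1 and Nr1d1 included. The median log2 fold change of these 12 was 0.72, and 9 lay above 0. In 7 of them the PG 826 animals lay wholly above saline, against 7.27% of all genes. Among them Nr1d2, the paralogue of Nr1d1, measured 24, 34.9 and 25.5 CPM after PG 826, against 9.57, 14.4 and 17.6 CPM after saline (1.02 ± 0.25, edgeR adjusted p = 0.0894). Per2 measured 9.64, 14.2 and 8.44 CPM after PG 826, against 7.1, 4.5 and 4.48 CPM after saline (1.00 ± 0.47, edgeR adjusted p = 0.509). Per3 measured 3.29, 6.96 and 4.89 CPM after PG 826, against 2.57, 1.58 and 1.46 CPM after saline (1.43 ± 0.47, edgeR adjusted p = 0.288). These 3 did not overlap between groups and did not pass the test. Of 5 genes of an opposite or later phase, 4 had a log2 fold change below 0, with a median of -0.34, none passed, and Arntl and Clock did not overlap. Arntl, which encodes BMAL1, measured 3.4, 7.74 and 6.14 CPM after PG 826, against 15.4, 12.5 and 15.5 CPM after saline (-1.32 ± 0.32, edgeR adjusted p = 0.0984). The median over all 19 members was 0.04, with the arms of the clock on opposite sides of 0. In 10% ethanol animals Dbp measured 6.37, 9.5 and 10.6 CPM and Per1 measured 13.6, 10.7 and 18.8 CPM. On average both lay between PG 826 and saline animals, and Dbp overlapped between PG 826 and ethanol.

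Among 19 tested glucocorticoid receptor targets, 3 rose (Fkbp5, Per1 and Klf9), none fell and 16 did not pass. The median was 0.50 and 15 of 19 lay above 0. Cdkn1a, which encodes the cell cycle inhibitor p21, measured 152, 156 and 153 CPM after PG 826, against 107, 80.4 and 101 CPM after saline (0.68 ± 0.16, edgeR adjusted p = 0.0623), just outside the threshold and without overlap. Tsc22d3, the glucocorticoid-induced leucine zipper, measured 153, 116 and 167 CPM after PG 826, against 95.6, 102 and 110.1 CPM after saline (0.50 ± 0.15, edgeR adjusted p = 0.257). Dusp1, a phosphatase on the same list, lay on the other side, at 64.3, 76.7 and 88.3 CPM after PG 826, against 126, 109.7 and 108 CPM after saline (-0.58 ± 0.18, edgeR adjusted p = 0.246). Per1 and Klf9 are known to be driven by the clock as well, so the lists are not independent of each other.

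**Figure D3:**
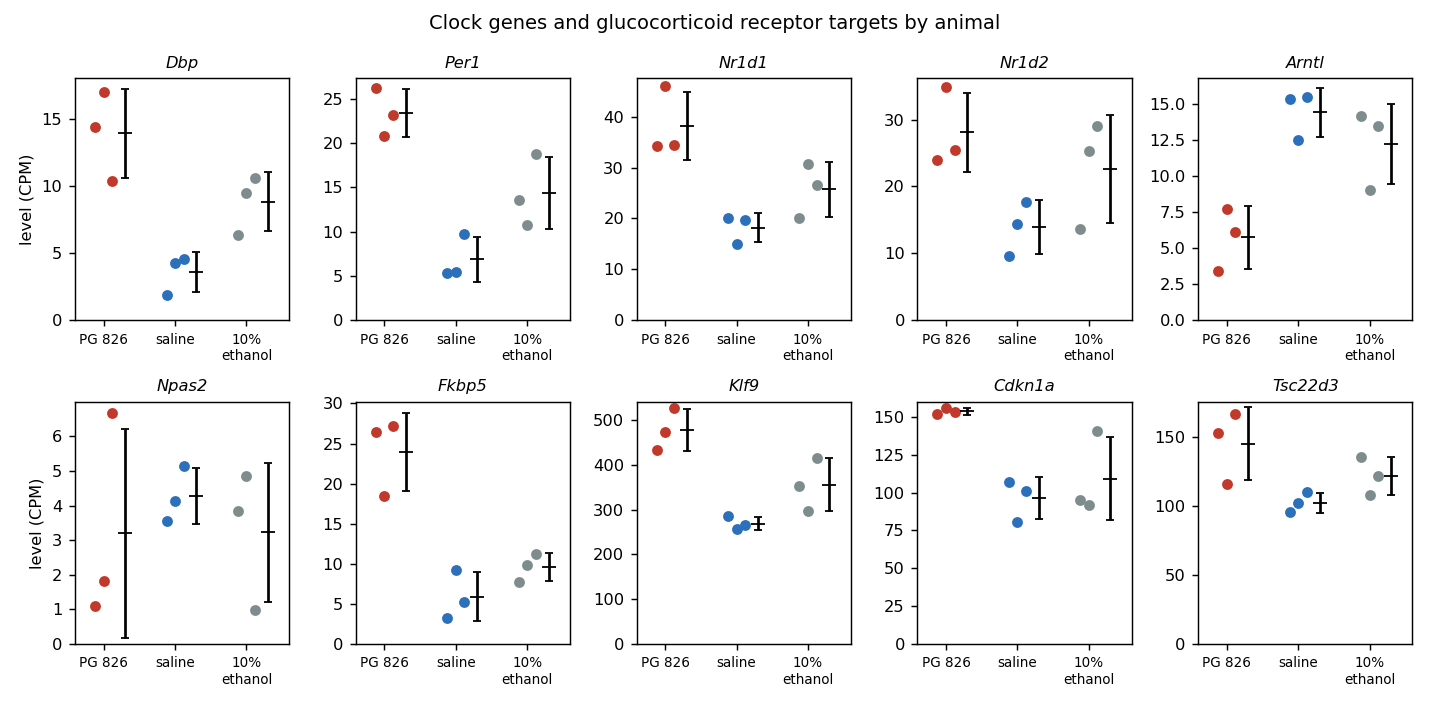
Levels in CPM (vertical axes, each from 0) of 10 clock genes and glucocorticoid receptor targets in each animal of the PG 826, saline and 10% ethanol groups, with mean ± SD (n = 3) beside the points. Dbp, Per1, Nr1d1, Fkbp5 and Klf9 were called in PG 826 against saline; Nr1d2, Arntl, Npas2, Cdkn1a and Tsc22d3 were not.

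The promoters of these genes were searched for the sequences that the clock factors and the glucocorticoid receptor are known to bind. RefSeq promoter windows (GRCm38.p6, 250 bases before to 50 after a start) were matched for 17 of the 20 called genes, in 22 windows. The E-box CACGTG, which reads the same on both strands, was present in 2 of the 22, at Per1 and Fkbp5, and in 7.15% of all 32851 windows. The glucocorticoid response element, searched as AGAACA and TGTTCT 3 bases apart with up to 2 mismatches in the 12 fixed bases and also the same on both strands, was in none of the 22 and in 1.84% of all windows. With so few windows, finding none says little, and sequence outside the windows was not searched. The Per1 and Fkbp5 windows up to the start are shown because they are the called genes whose promoter holds the E-box, which is in capitals. The Per1 window shown is chr11:69098699-69098948 on the plus strand, and its E-box begins 166 bases before the start. The Fkbp5 window shown is chr17:28486150-28486399 on the minus strand, and its E-box begins 169 bases before the start. A match is letters in a window, not a measured binding site.
Per1: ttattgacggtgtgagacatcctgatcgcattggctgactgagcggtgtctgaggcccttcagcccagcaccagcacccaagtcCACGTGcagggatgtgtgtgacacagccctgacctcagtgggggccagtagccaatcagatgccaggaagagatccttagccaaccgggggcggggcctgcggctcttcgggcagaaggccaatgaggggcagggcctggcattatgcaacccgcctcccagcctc
Fkbp5: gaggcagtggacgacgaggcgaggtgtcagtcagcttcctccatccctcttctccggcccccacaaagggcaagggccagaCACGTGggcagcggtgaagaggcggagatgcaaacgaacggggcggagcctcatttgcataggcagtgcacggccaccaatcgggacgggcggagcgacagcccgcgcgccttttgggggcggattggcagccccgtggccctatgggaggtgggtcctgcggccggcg

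Retnla and Chil3, products of macrophages in type 2 immunity, rose as well. Retnla (also Fizz1 or RELM alpha), a secreted protein of alternatively activated macrophages and airway epithelium, measured 588, 394 and 217 CPM after PG 826, against 122, 66.1 and 98.8 CPM after saline (chromosome 16, 48842551 to 48844461, plus strand). The lowest PG 826 animal stood above the highest saline animal, yet the PG 826 animals spanned a wide range and the rise of 2.06 ± 0.36 passed only narrowly (edgeR adjusted p = 0.0379); under the 14 alternatives it ran from 1.2e-36 to 0.311 and it passed in 6. Chil3 (Ym1), a chitinase-like protein made in bulk by alveolar macrophages, measured 1063, 957 and 874 CPM after PG 826, against 376, 590.1 and 549.9 CPM after saline, a rise of 0.93 ± 0.16 (edgeR adjusted p = 0.0031; chromosome 3, 106147554 to 106167564, minus strand). Its near relative Chil4 measured 9.53, 5.48 and 5.94 CPM after PG 826, against 2.86, 1.83 and 2.24 CPM after saline (1.58 ± 0.38, edgeR adjusted p = 0.097), and reads shared between such relatives were not tested.

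On the list of the type 2 response and alternative activation, Retnla and Chil3 rose, none fell and the other 14 of 16 tested members did not pass; the median was 0.27. Leaving those called genes out, the summed level of the list was 553, 489 and 437 CPM after PG 826, against 361, 452 and 420.4 CPM after saline, which overlap. On the alveolar macrophage list Chil3 was the only one of 17 tested members to pass, with a median of 0.28 and 14 of 17 above 0. Without Chil3 its summed level was 1682, 1408 and 1251 CPM after PG 826, against 1022, 1289.8 and 1624 CPM after saline, which overlap, and no tested member was at 0 in all 6 animals. The part of macrophage number in the Chil3 result was not tested, and lavage had removed cells from the airspaces of these lungs before RNA was taken. Marco, a scavenger receptor of alveolar macrophages, measured 28.5, 61.2 and 23.6 CPM after PG 826, against 18.5, 16.7 and 22.1 CPM after saline (0.99 ± 0.39, edgeR adjusted p = 0.443). Itgax, which encodes CD11c, measured 29.5, 28.4 and 32.4 CPM after PG 826, against 21.5, 16.6 and 22.3 CPM after saline (0.58 ± 0.20, edgeR adjusted p = 0.326). Neither passed, although neither overlapped. Of the 17 members, Chil3 included, 6 were wholly above saline and 1 wholly below, against 7.27% and 6.67% of all genes.

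Markers of recruited monocytes and macrophages gave no call among 16 tested genes (median 0.20). Closest was Ms4a7, a marker of interstitial and monocyte-derived macrophages, at 5.7, 8.87 and 6.77 CPM after PG 826, against 1.28, 3.04 and 3.21 CPM after saline (1.51 ± 0.35, edgeR adjusted p = 0.0749). No gene passed either on the list of lipid handling in macrophages (17 tested, median 0.25). Lipa, the lysosomal acid lipase, measured 53.7, 61 and 57.7 CPM after PG 826, against 40.6, 25.7 and 35.4 CPM after saline (0.76 ± 0.18, edgeR adjusted p = 0.0816). Gpnmb, a lysosomal membrane glycoprotein of lipid-laden macrophages, measured 20.4, 18.8 and 15.5 CPM after PG 826, against 9.37, 3.9 and 6.42 CPM after saline (1.46 ± 0.49, edgeR adjusted p = 0.352). Both were without overlap, and of the 17 members 5 were so, all with PG 826 higher, against 7.27% of all genes. Without saline animal 6, 1 of the 17 was called higher.

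Col1a1 and Lox, a collagen chain and an enzyme that crosslinks it, rose after PG 826. Col1a1, the alpha 1 chain of type I collagen, measured 147, 139 and 168 CPM after PG 826, against 113, 64.6 and 59.2 CPM after saline (chromosome 11, 94936224 to 94953042, plus strand). It rose by 0.93 ± 0.20 and passed barely (edgeR adjusted p = 0.0497). Saline animal 6 lay nearest to the PG 826 animals and the other saline animals well below. Lox, lysyl oxidase, which also acts on elastin, measured 21.9, 33.9 and 39.1 CPM after PG 826, against 17.3, 14 and 13.8 CPM after saline, a rise of 1.07 ± 0.20 (edgeR adjusted p = 0.00901). Sema7a, a membrane-anchored semaphorin, measured 27.9, 32 and 35.2 CPM after PG 826, against 16.7, 10.7 and 8.85 CPM after saline. Sema7a rose by 1.39 ± 0.24 (edgeR adjusted p = 0.0031; chromosome 9, 57940112 to 57962865, plus strand), and it was called in 11 of the 14 alternatives, against 6 each for Col1a1 and Lox.

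Around Col1a1, 15 of 16 tested collagens had a log2 fold change above 0, against 50.2% of all genes, with a median of 0.39. Of the 16, 1 rose, none fell and 15 did not pass. In 4 the groups did not overlap, all with PG 826 higher, against 7.27% of all genes. Col6a1 measured 65.7, 58.6 and 69.7 CPM after PG 826, against 54.5, 34.5 and 28.3 CPM after saline (0.73 ± 0.19, edgeR adjusted p = 0.139). Col4a1, of the basement membrane, measured 298, 343 and 321 CPM after PG 826, against 289, 185 and 176 CPM after saline (0.56 ± 0.17, edgeR adjusted p = 0.246). In each the same order of saline animals held, with animal 6 highest. The summed collagen level was 1726, 1688 and 1875 CPM after PG 826, against 1760.3, 1110.2 and 996 CPM after saline, so that animal 6 alone matched the PG 826 lungs. Without saline animal 6, where 0.799% of 15022 genes tested were called, 7 of the 16 collagens were called higher and the median was 0.67. Without any 1 of the other 5 animals no collagen was called, and the median was 0.25 to 0.46.

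Enzymes of collagen processing and crosslinking gave Lox as the single call among 16 tested (median 0.24). Loxl1, its paralogue, measured 59.1, 66.6 and 79.7 CPM after PG 826, against 57.5, 32.4 and 40.5 CPM after saline (0.65 ± 0.18, edgeR adjusted p = 0.149). P4ha1, a prolyl hydroxylase needed for collagen folding, lay the other way, at 27.3, 49.2 and 45.4 CPM after PG 826, against 65.9, 81.8 and 56.2 CPM after saline (-0.74 ± 0.18, edgeR adjusted p = 0.0816). Of 20 matrix glycoproteins and elastic fibre genes none passed, and 16 lay above 0 (median 0.32). Fn1, fibronectin, measured 64.1, 68.4 and 89.8 CPM after PG 826, against 59.2, 30.9 and 40.5 CPM after saline (0.76 ± 0.20, edgeR adjusted p = 0.149). Tnc, tenascin C, measured 8.11, 10.9 and 14.5 CPM after PG 826, against 5.53, 4.38 and 0.778 CPM after saline (1.66 ± 0.40, edgeR adjusted p = 0.114). Without saline animal 6, 3 of these 20 were called higher, and on the crosslinking list 3 were called higher and 1 lower. Mmp2, a gelatinase, measured 60.7, 40 and 59.5 CPM after PG 826, against 34.9, 27 and 20 CPM after saline (0.96 ± 0.21, edgeR adjusted p = 0.0598). On the fibroblast list Sema7a, which was placed there with its call known, was the one gene of 14 to pass, and the median was 0.04, or -0.11 without PG 826 animal 25. Leaving Sema7a out, fibroblast markers summed to 2735, 2929 and 3486 CPM after PG 826, against 3171, 3156 and 3246 CPM after saline, which overlap.

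The remaining risers belong to no common list. Alas1, the first and rate-limiting enzyme of haem synthesis outside red cells, measured 139, 170.5 and 152 CPM after PG 826, against 109, 91.8 and 93.4 CPM after saline (0.65 ± 0.14, edgeR adjusted p = 0.0379; chromosome 9, 106233455 to 106248654, minus strand). Atp11a, a flippase that moves phosphatidylserine to the inner leaflet of the membrane, measured 69.5, 104 and 80.8 CPM after PG 826, against 59.9, 53.1 and 44.2 CPM after saline (0.70 ± 0.15, edgeR adjusted p = 0.0484). Tmem106a, a transmembrane protein found in macrophages, measured 17.5, 15.3 and 17.1 CPM after PG 826, against 10.4, 7.43 and 5.94 CPM after saline (1.07 ± 0.23, edgeR adjusted p = 0.0381). Zfp598, a ubiquitin ligase that detects collided ribosomes, measured 29, 23.7 and 24.8 CPM after PG 826, against 16, 9.98 and 13.5 CPM after saline (0.97 ± 0.22, edgeR adjusted p = 0.0499). In none of the 4 did the groups overlap, and each passed in 3 to 7 of the 14 alternatives.

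Tff2, a secreted trefoil peptide of mucous epithelium, had the largest fall among the called genes. It measured 2.85, 3.74 and 0.937 CPM after PG 826, against 13.8, 13.9 and 14.4 CPM after saline (chromosome 17, 31141049 to 31144282, minus strand). Saline animals were nearly equal and every PG 826 animal was far below them. The fall was 2.46 on the log2 scale (SE 0.41, edgeR adjusted p = 0.0031), and it missed the threshold under limma-voom (adjusted p = 0.0573). In 10% ethanol animals Tff2 measured 25, 9.93 and 6.47 CPM, so the PG 826 values were below that group too. Of 11 tested goblet and mucous genes 1 fell, none rose and 8 lay above 0 (median 0.48). That median was 0.03 without saline animal 8, 0.20 without saline animal 6 and 0.96 without saline animal 10. Clca1, a secreted protein of goblet cells, measured 17, 10.8 and 3.85 CPM after PG 826, against 1.78, 0.243 and 1.36 CPM after saline (3.15 ± 0.82, edgeR adjusted p = 0.241); it was wholly above saline in spite of its low level, and it passed under 4 of the 14 alternatives. Without Tff2, the list summed to 92.7, 78.9 and 66.2 CPM after PG 826, against 47.9, 33 and 79.9 CPM after saline, which overlap.

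Asgr1, the major subunit of the asialoglycoprotein receptor, best known for clearing glycoproteins in liver, measured 6.9, 4.61 and 6.87 CPM after PG 826, against 14.5, 26.3 and 32.2 CPM after saline (chromosome 11, 70054085 to 70057894, plus strand). It fell by 1.99 on the log2 scale (SE 0.32, edgeR adjusted p = 0.00232), with saline animal 6 the lowest of its group. Vpreb3, a protein of developing B cells, measured 7.56, 11.2 and 5.31 CPM after PG 826, against 18.5, 25.3 and 23.3 CPM after saline, a fall of 1.47 on the log2 scale (SE 0.27, edgeR adjusted p = 0.0076). It was the one gene of 15 tested on the B and plasma cell list to pass. The median of that list was -0.06 and 6 of 15 lay above 0. Leaving Vpreb3 out, the list summed to 168, 178 and 183 CPM after PG 826, against 191, 185 and 190.1 CPM after saline, so that all PG 826 animals were lower by a small margin; the part of B cell number in the Vpreb3 result was not tested.

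Mak, a kinase known to control the length of cilia, measured 10.4, 9.83 and 5.1 CPM after PG 826, against 18.4, 20.9 and 21 CPM after saline, a fall of 1.25 on the log2 scale (SE 0.27, edgeR adjusted p = 0.0379). All 16 tested genes of the ciliated cell list, Mak included, had a log2 fold change below 0, against 50.2% of all genes above 0; 1 fell, 15 did not pass and the median was -0.32. Tppp3, a microtubule-binding protein, measured 379, 277 and 350.4 CPM after PG 826, against 425, 552 and 453 CPM after saline (-0.51 ± 0.16, edgeR adjusted p = 0.257). Dnah5, a dynein heavy chain of cilia, measured 12.2, 9.48 and 7.08 CPM after PG 826, against 18.5, 21.2 and 17.4 CPM after saline (-0.99 ± 0.31, edgeR adjusted p = 0.257). Leaving Mak out, ciliated cell markers summed to 668, 528 and 591 CPM after PG 826, against 678, 898 and 877 CPM after saline. Animal 22 of PG 826 nearly reached saline animal 6 on this sum, and the other saline animals were well above; the part of ciliated cell number in the Mak result was not tested. Without saline animal 6, 2 of the 16 were called lower.

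Club cell markers held no call. Of 12 tested, 11 lay below 0 and 7 were wholly below saline, against 6.67% of all genes, with a median of -0.55. Scgb1a1, the uteroglobin that is the most abundant transcript of club cells, measured 38989.9, 39827 and 36929.8 CPM after PG 826, against 47441, 55295 and 62601 CPM after saline (-0.51 ± 0.15, edgeR adjusted p = 0.224). Gsta3, a glutathione S-transferase expressed there, measured 145, 144 and 143 CPM after PG 826, against 178, 220.0 and 252 CPM after saline (-0.59 ± 0.18, edgeR adjusted p = 0.246). Cckar, a cholecystokinin receptor, measured 71.4, 56.9 and 48.4 CPM after PG 826, against 74.4, 112 and 106 CPM after saline (-0.73 ± 0.26, edgeR adjusted p = 0.357). Club cell markers summed to 50703, 52512 and 48904 CPM after PG 826, against 60309.7, 70958 and 80682 CPM after saline, without overlap. With no low-count filter, where 0.852% of 19010 genes were called, 5 of the 12 were called lower. DESeq2, which called 0.53% of genes tested, and the fit without saline animal 6 each called 1 lower.

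Detoxifying enzymes, many of them expressed in club cells, lay mostly below 0 with 1 call. Gstm2, a cytosolic glutathione S-transferase, measured 110.4, 116 and 109 CPM after PG 826, against 165, 187 and 201 CPM after saline, a fall of 0.72 on the log2 scale (SE 0.15, edgeR adjusted p = 0.0379). It has close relatives in the Gstm cluster, and reads shared among them were not tested. Among 21 tested glutathione S-transferases Gstm2 alone passed, 6 lay above 0 and the median was -0.17. Of 19 tested cytochromes P450 and other xenobiotic enzymes none passed and 16 lay below 0 (median -0.46). Of these enzymes, 8 were wholly below saline and 2 wholly above, against 6.67% and 7.27% of all genes. With no low-count filter 4 of 20 were called lower. Of the 19, 1 each was called lower by DESeq2, without saline animal 6 and with only PG 826 and saline in the fit, where 0.111% of 13540 genes were called. Pon1, a paraoxonase, measured 46.1, 52.4 and 51 CPM after PG 826, against 81.5, 128 and 149 CPM after saline (-1.26 ± 0.30, edgeR adjusted p = 0.146). Cyp4b1, a lung cytochrome P450, measured 217, 248 and 237 CPM after PG 826, against 337, 341 and 339.9 CPM after saline (-0.54 ± 0.17, edgeR adjusted p = 0.282). The alcohol and aldehyde dehydrogenases, which act on PG itself, had a median of -0.05 over 18 tested members, with no call. Of these Aldh1a1 was 665 ± 13.9 CPM after PG 826 and 860.0 ± 176 CPM after saline (-0.37 ± 0.17, edgeR adjusted p = 0.504), and Aldh2 was 510.1 ± 30.5 CPM after PG 826 and 448 ± 72.6 CPM after saline (0.19 ± 0.14, edgeR adjusted p = 0.718).

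Pttg1, securin, which restrains the separation of sister chromatids until anaphase, measured 117, 90.1 and 111 CPM after PG 826, against 146, 189 and 166 CPM after saline. That was a fall of 0.66 on the log2 scale (SE 0.14, edgeR adjusted p = 0.0379). It was the one gene of 20 tested on the cell cycle list to pass; 14 of the 20 lay above 0 and the median was 0.21. The median was -0.42 without PG 826 animal 22, 0.01 without saline animal 10, and 0.46 and 0.47 without PG 826 animals 23 and 25. Bub1, a checkpoint kinase, had a log2 fold change of 0.99 ± 0.73, edgeR adjusted p = 0.719. Without Pttg1 the list summed to 242, 124 and 109 CPM after PG 826, against 170.0, 143 and 112 CPM after saline, which overlap.

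The genes just outside the threshold were of mixed function. Gfra1, a receptor of the GDNF family, measured 7.23, 6.96 and 9.17 CPM after PG 826, against 20.8, 19.5 and 18.5 CPM after saline (-1.33 ± 0.30, edgeR adjusted p = 0.057). Pfkfb3, a regulator of glycolysis, measured 44.4, 38.4 and 40.2 CPM after PG 826, against 23.4, 16.3 and 28.4 CPM after saline (0.85 ± 0.20, edgeR adjusted p = 0.0816). Ifitm1, an interferon-induced membrane protein, measured 45.4, 50.2 and 41.8 CPM after PG 826, against 60.9, 88.3 and 94.4 CPM after saline (-0.83 ± 0.19, edgeR adjusted p = 0.0816). None of the 3 overlapped between groups. Spink5, a serine protease inhibitor of epithelia, was at 53.2 ± 13.4 CPM after PG 826 and 26.8 ± 4.91 CPM after saline (0.99 ± 0.23, edgeR adjusted p = 0.0816). The other 6 of the 10 nearest genes, Mmp2, Cdkn1a, Ms4a7, P4ha1, Lipa and Nr1d2, are given above, and the 10 passed in 2 to 4 of the 14 alternatives.

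Other gene groups held no call. Surfactant and type II cell genes (14 tested, median 0.15), type I cell genes (12, -0.09), transitional alveolar epithelium (14, 0.05) and endothelial genes (16, 0.00) lay near 0. So did NRF2 targets of the oxidative stress response (16, 0.05) and cholesterol synthesis (19, 0.09). Among the transitional genes 1 was called higher in the fit without saline animal 6. Targets of the osmotic stress factor NFAT5 had a median of -0.16 over 14 members, and Akr1b3, the aldose reductase that makes sorbitol, was 29 ± 1.95 CPM after PG 826 and 39.3 ± 6.81 CPM after saline (-0.44 ± 0.17, edgeR adjusted p = 0.393). Genes of ER and integrated stress had a median of -0.18 over 16 members, and Pdia4, an ER disulphide isomerase, was 89.3 ± 16.7 CPM after PG 826 and 143 ± 12 CPM after saline (-0.68 ± 0.18, edgeR adjusted p = 0.154). Immediate early genes had a median of -0.44 over 15 members, 5 of them wholly below saline, against 6.67% of all genes. Nr4a1, a nuclear receptor induced by stimuli, was 6.48 ± 1.61 CPM after PG 826 and 12.5 ± 1.69 CPM after saline (-0.95 ± 0.32, edgeR adjusted p = 0.296). MHC class II and dendritic cell genes (0.27 over 14), neutrophil genes (-0.13 over 12), T and NK cell genes (-0.23 over 16) and interferon-stimulated genes (-0.34 over 17) had no call either. The median was 0.07 without PG 826 animal 23 for T and NK cells, and 0.01 and 0.02 for neutrophils without saline animals 8 and 10. With no low-count filter 1 gene each was called lower among immediate early, ER stress and interferon-stimulated genes, 1 higher and 2 lower among neutrophil genes, and 1 higher among transitional genes.

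Markers of blood, muscle, fat and mesothelium, which can come with a lung sample, held no call. All 12 tested erythroid genes had a log2 fold change below 0 (median -0.57, and -0.17 without saline animal 8), and they summed to 91621, 49908 and 77570.0 CPM after PG 826, against 63608, 162977 and 105242 CPM after saline, which overlap. All 13 tested heart and skeletal muscle genes lay below 0 (median -0.72), and they summed to 201, 184 and 277 CPM after PG 826, against 345, 306 and 437 CPM after saline, without overlap. Adipocyte genes summed to 612, 337 and 261 CPM after PG 826, against 192, 310.5 and 1211 CPM after saline (median -0.43 over 11) and mesothelial genes to 536, 428 and 354 CPM after PG 826, against 379.7, 591 and 483 CPM after saline (median -0.39 over 9), both with overlap. The adipocyte median was 0.95 without saline animal 10 and -0.86 without PG 826 animal 22, so that its sign rested on saline animal 10. The fit without saline animal 6, the saline animal with the least haemoglobin, called 4 erythroid genes lower. With no low-count filter 6 of 12 erythroid, 3 of 15 muscle and 1 of 12 adipocyte genes were called lower, and with only PG 826 and saline in the fit 1 muscle gene was. Without Rn45s and the haemoglobin genes in the totals 19 genes were called, all of them among the 20. The part of blood and muscle RNA in the other results was not otherwise tested.

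**Figure D4:**
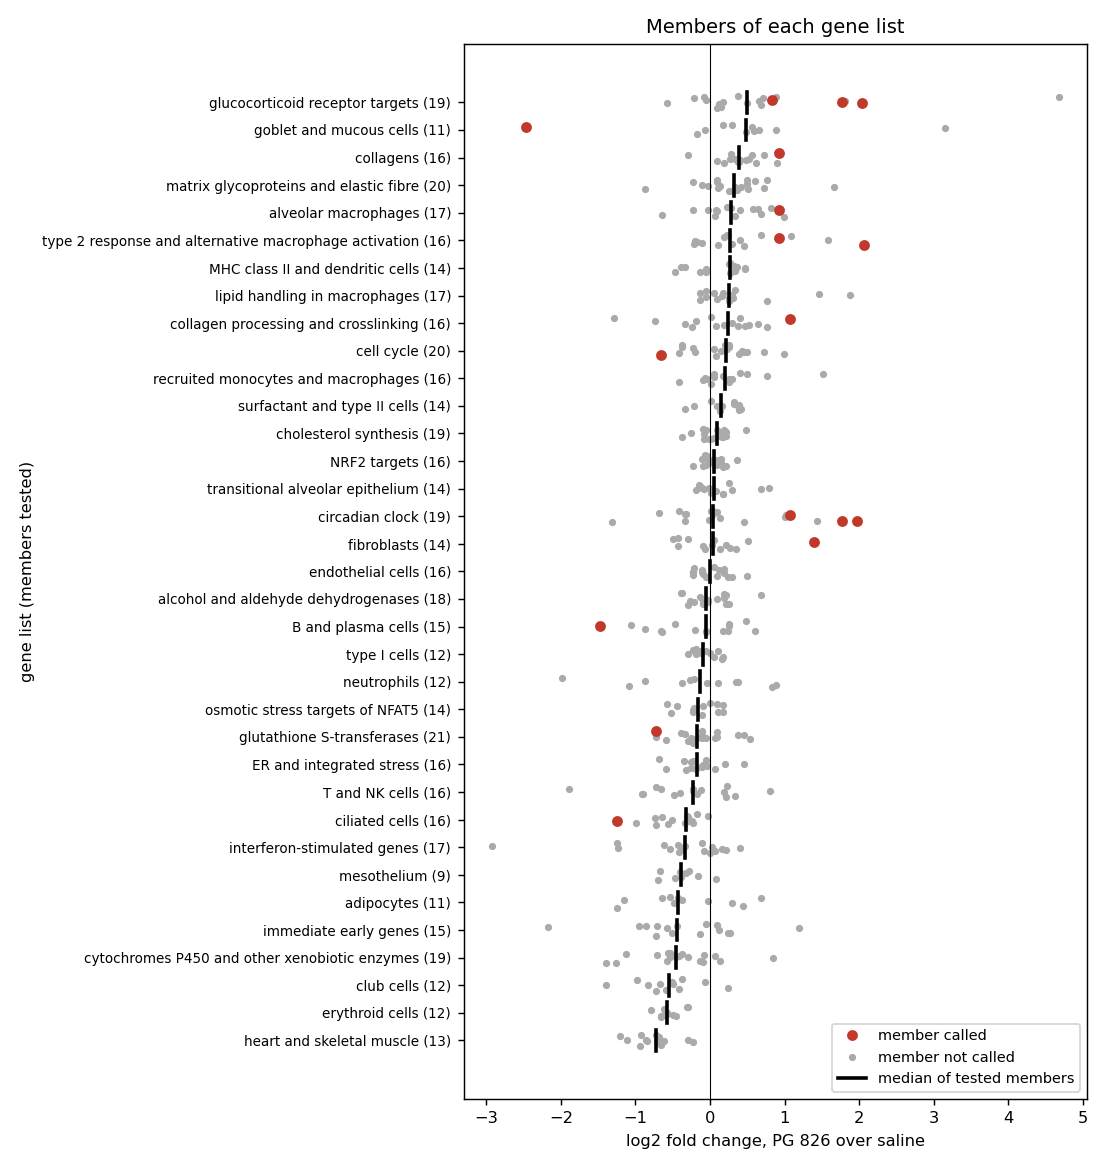
Log2 fold change of PG 826 over saline (horizontal axis) for every tested member of 35 gene lists (vertical axis, members tested in brackets), with called members in colour and a bar at the median. Medians run from -0.72 for heart and skeletal muscle to 0.50 for glucocorticoid receptor targets, and called members are few in each list.

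How firmly these calls stood differed between genes. Beside Fkbp5, Dbp and Asgr1, which were called under all 14 alternatives, Tff2 and Chil3 were called in 13 of the 14, Klf9 and Per1 in 12, Sema7a in 11 and Vpreb3 in 9. The remaining 11 genes were called in 3 to 7 of the 14. The size of the list also moved with the tool and with single animals: DESeq2 called 78 genes (0.53% of genes tested), edgeR called 120 without saline animal 6 (0.799% of 15022 tested) and 5 without saline animal 8. With no low-count filter it called 162 genes (0.852% of 19010), among them 3 collagens, 4 genes of the type 2 list and 3 of lipid handling, all higher, and 2 ciliated cell genes, both lower.

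Calls that ended when 1 animal was left out were as follows. Without saline animal 8, Klf9 and Per1 did not pass (edgeR adjusted p = 0.0594 for Klf9 and 0.0768 for Per1). Without saline animal 8 or 10, Sema7a did not pass (edgeR adjusted p = 0.0684 to 0.0737). Without PG 826 animal 22 or 25, or without saline animal 8, Vpreb3 did not pass (edgeR adjusted p = 0.0587 to 0.131). Without PG 826 animal 23 or 25, or without saline animal 8 or 10, Lox, Pttg1, Alas1, Mak and Atp11a did not pass (edgeR adjusted p = 0.0681 to 0.145 for Lox, 0.12 to 0.315 for Pttg1, 0.12 to 0.253 for Alas1, 0.0856 to 0.306 for Mak and 0.12 to 0.448 for Atp11a). Without PG 826 animal 22 or 23, or without saline animal 8 or 10, Retnla did not pass (edgeR adjusted p = 0.109 to 0.231). Without PG 826 animal 22, 23 or 25, or without saline animal 8 or 10, Gstm2, Tmem106a, Nr1d1, Col1a1 and Zfp598 did not pass (edgeR adjusted p = 0.111 to 0.183 for Gstm2, 0.0856 to 0.244 for Tmem106a, 0.0587 to 0.34 for Nr1d1, 0.095 to 0.365 for Col1a1 and 0.109 to 0.38 for Zfp598). Each of the 20 genes kept its direction in every fit without 1 of the 6 animals. The groups did not overlap in any of the 20, so leaving out 1 animal could hardly have reversed a direction.

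**Figure D5:**
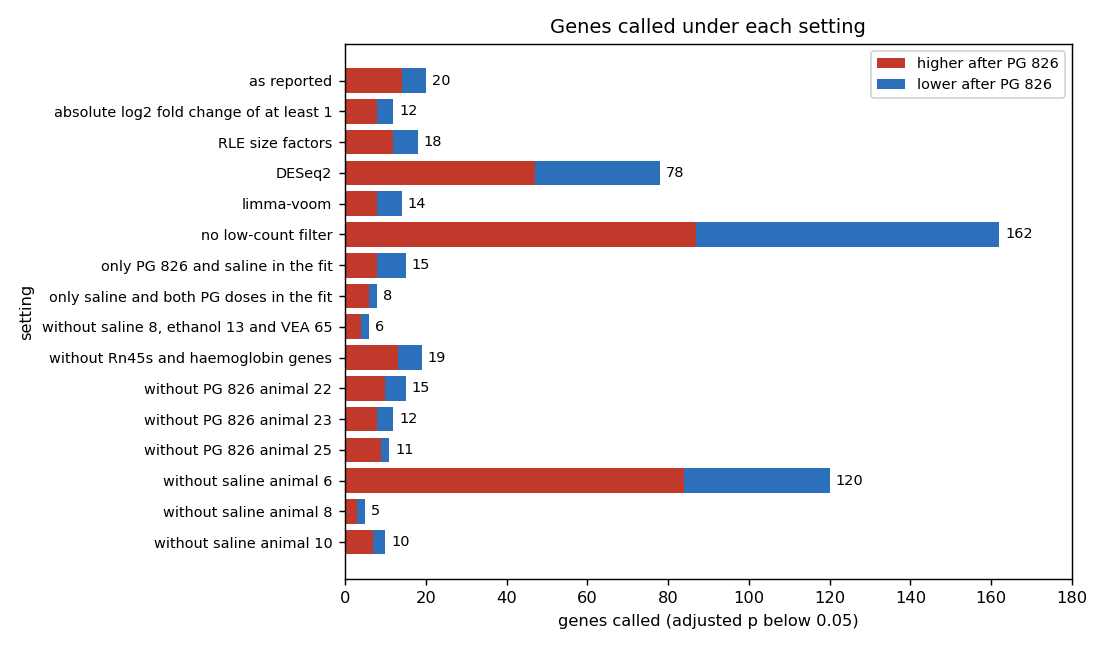
Number of genes called in PG 826 against saline (horizontal axis) as reported and under each alternative (vertical axis), split into genes higher and lower after PG 826. Counts run from 5 without saline animal 8 to 162 with no low-count filter, around the 20 reported.

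Set against the other vehicle, 16 of the 20 genes had PG 826 animals wholly outside the range of the 10% ethanol animals, where 12.9% of all genes did so. The 20 genes were picked with the same PG 826 values, which are used again here. A share above 12.9% was therefore likely beforehand and adds no independent support. The 4 that overlapped were Dbp, Lox, Alas1 and Atp11a. Chil3 averaged 965 ± 94.6 CPM after PG 826, 491 ± 36.4 CPM after 10% ethanol and 505 ± 114 CPM after saline. Klf9 averaged 478 ± 47.1 CPM after PG 826, 356 ± 59.3 CPM after 10% ethanol and 269 ± 14.6 CPM after saline. Ethanol animals thus lay near saline for Chil3 and between the groups for Klf9, as they did for Col1a1, at 122 ± 12.7 CPM.

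The direct test of PG 1100 against PG 826 called 5.55% of all genes (818), and 4 of the 20 were among them. Col1a1 was higher still at PG 1100, at 415, 279 and 267 CPM (1.08 ± 0.20, edgeR adjusted p = 0.000853), and this held under all 7 alternatives run. Klf9 was lower at PG 1100 than at PG 826, at 366, 247 and 336 CPM (-0.60 ± 0.14, edgeR adjusted p = 0.00814), as was Alas1, at 103, 98.8 and 116 CPM (-0.54 ± 0.14, edgeR adjusted p = 0.0136). Asgr1 was lower again, at 1.84, 1.77 and 4.12 CPM (-1.25 ± 0.35, edgeR adjusted p = 0.0263). Without PG 1100 animal 28 or PG 826 animal 25 these 3 calls ended (edgeR adjusted p = 0.139 and 0.0805 for Klf9, 0.104 and 0.052 for Alas1, and 0.211 and 0.121 for Asgr1). With only both PG doses in the fit the same 3 did not pass either (edgeR adjusted p = 0.0577 for Klf9, 0.0565 for Alas1 and 0.125 for Asgr1). Alas1 also did not pass without PG 826 animal 23 (edgeR adjusted p = 0.0903). Asgr1 also did not pass without PG 1100 animal 27 or PG 826 animal 22 (edgeR adjusted p = 0.086 and 0.0803). Retnla measured 642, 1349 and 717 CPM at PG 1100 (1.18 ± 0.34, edgeR adjusted p = 0.0615), and Fkbp5 measured 28, 17.4 and 27.5 CPM (0.02 ± 0.25, edgeR adjusted p = 0.985). Tff2 measured 5.02, 3.65 and 5.34 CPM (0.88 ± 0.42, edgeR adjusted p = 0.272), with every animal below the saline animals. The tests of both contrasts share the PG 826 libraries, so high or low values in those 3 animals enter both.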

How the data were processed

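The authors deposited raw counts per gene symbol, 1 file per library, made from Lexogen QuantSeq 3′ libraries of 500 ng lung RNA, per the labels. The submitters' processing notes name Bowtie2, bedtools and mm10; versions, the annotation and use of strand are not given in the sources used here. Each file had 23282 rows and 23238 symbols, and rows of the 35 repeated symbols were summed. Total counts were 8778028 to 11783151 over 21 libraries.

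Genes were kept by filterByExpr by group (14727), scaled by TMM and fitted with edgeR 4.0.16 (R 4.3.3, quasi-likelihood, robust) over all 7 groups of 3, with 14 residual degrees of freedom and a biological coefficient of variation of 23.81%. The contrast was PG 826 minus saline, and p-values were adjusted by Benjamini-Hochberg over all genes tested. The SE is the absolute log2 fold change over the square root of F. CPM values were TMM-scaled. P-values measure the spread between these animals; whether animals were housed or treated separately is not given. Shares of counts were compared by exact permutation tests.

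The members and the 35 lists (539 genes, 518 tested) were chosen with earlier results of these data known, so lists are described by counts and medians, with no test. Named genes were every called gene, the 10 next by p and up to 4 members of smallest p per list, leaving out unnamed gene models; Per2, Per3, Tsc22d3, Npas2, Arntl, Sftpc and Ager were added for their role after their values were seen. Alternatives were RLE scaling, DESeq2 1.42.0, limma-voom 3.58.1, no low-count filter, fewer groups in the fit, no Rn45s or haemoglobin, and leaving out animals. Scripts were tested on simulated data, where 4.27% of edgeR calls, 12.2% of DESeq2 calls and 3.75% of limma-voom calls were false. Of simulated 2-fold changes, placed only in genes above a minimum count, edgeR recovered 58.9%. Positions are GENCODE M21 (GRCm38), a choice made here; promoters are RefSeq's.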

Additional observations from a re-analysis of the deposited data

How the results depend on the processing

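The count of 20 genes in PG 826 against saline was 18 with RLE scaling, 14 with limma-voom, 15 with only these groups in the fit and 19 without Rn45s and haemoglobin genes. With only these groups in the fit, just 10 of the 15 were among the 20, and with limma-voom 13 of the 14 were. It was 12 with an added log2 fold change of at least 1, 78 with DESeq2 (0.53% of genes tested) and 162 of 19010 genes with no low-count filter. It was 8 with only saline and both PG doses in the fit and 6 without saline 8, ethanol 13 and VEA 65, and leaving out 1 of the 6 animals gave 5 to 120. The DESeq2, unfiltered and saline 6 lists held all 20 genes; the causes were not tested. PG 1100 against PG 826 gave 818 genes, 425 with only both doses in the fit, and 259 to 1458 without 1 animal (1458 without PG 1100 animal 27, 259 without animal 28, 342 without PG 826 animal 25). None of the 20 genes of PG 826 against saline changed direction, which was likely beforehand because their groups did not overlap. The directions of the 818 genes of PG 1100 against PG 826 were not compared between fits. Of 490 list medians under the alternatives, 454 moved by less than the spread between libraries and 36 by more. No paired analysis was possible because the animal numbers are not shared between groups. With 3 animals a group, and 41.1 to 57.5 counts at 5 CPM, small differences in genes of low level were not detectable at this depth.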

Other observations

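Beside the 20 genes, DESeq2 called others that edgeR did not, and the following were picked from those after their values were seen. The main edgeR fit did not call these added genes, so they are less firm. On simulated data 12.2% of DESeq2 calls were false, against 4.27% of edgeR calls. The simulation gave a gene the same spread in every animal, so these shares need not hold for these data. Actg1, the cytoplasmic gamma actin, had a log2 fold change of 0.47 ± 0.10 (DESeq2 adjusted p = 0.00439). Tnc had 1.64 ± 0.38 (DESeq2 adjusted p = 0.00793) and Clca1 3.20 ± 0.73 (DESeq2 adjusted p = 0.00651), both matrix or mucous genes given above by edgeR. Arntl had -1.33 ± 0.33 (DESeq2 adjusted p = 0.0212), and Lrg1, a secreted acute-phase glycoprotein, had 1.32 ± 0.33 (DESeq2 adjusted p = 0.0212). Without saline animal 6, matrix genes headed the added calls of edgeR. Col6a1 had a log2 fold change of 1.05 ± 0.19 (edgeR adjusted p = 0.0063), Mmp14, a membrane-bound collagenase, 1.10 ± 0.21 (edgeR adjusted p = 0.00807) and Fn1 1.05 ± 0.20 (edgeR adjusted p = 0.0113). In the same fit Tmem212, a gene of ciliated cells, had -1.04 ± 0.21 (edgeR adjusted p = 0.0142) and Aqp4, a water channel of airway epithelium, had -1.84 ± 0.39 (edgeR adjusted p = 0.0165).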
